A study of Mus musculus with 2 samples.

Results

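The 55 genes described here encode the Wnt signaling pathway, from 19 secreted ligands and 15 receptors to 9 secreted inhibitors, 3 secreted agonists, 5 cytoplasmic components and 4 nuclear effectors. Their peaks were selected on the gene name written beside each peak in the deposited table. That table lists only positions with a higher height in the Dnmt1-Dam than in the Dam-only library, so the excess of Dnmt1-Dam at these peaks was fixed by the selection and is given as a description. By name, 25 of the 55 genes had at least 1 peak, and together they held 42 of the 8226 peaks. By the transcript accession that the same table gives, 2 further members had peaks, which the name misses: Tcf7l2, whose name is blank at 5 peaks, and Tcf7l1, which is listed under its older symbol Tcf3 at 1 peak. With them the count was 27 genes and 48 peaks. Of 21035 genes with a curated mRNA accession in RefSeq, 17.9% had a peak by name and 22.7% by accession. The counts of genes by role below stand beside these shares. The members were proposed with these peaks known, so nothing is read from the differences. Where no set is named, a count or share refers to the 42 peaks by name.

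The study mapped sites visited by Dnmt1, the methyltransferase that copies DNA methylation onto newly replicated strands, in early mouse embryos. It used DamID, in which a bacterial adenine methyltransferase (Dam) marks GATC sequences near the protein it is fused to, and Dam without a partner marks DNA wherever it is open to the enzyme. The 1 Dnmt1-Dam library came from 50 embryos injected with a Dnmt1-V5-Dam construct, and the 1 Dam-only library from 50 embryos injected with Dam without a partner. The strain of both groups is given as BCF1 (C57BL/6 x CBA/CA), with zygotes from superovulated females aged 5 weeks grown in culture and collected at 4 to 8 cells. Embryos were pooled within a library and the fusion came from an injected construct, not from the Dnmt1 locus. With 1 library per group no difference below has a replicate check, and no p-value was computed. The height is a whole number per peak and library whose scaling, and the reads behind it, the labels and the table leave unstated. Heights in the table start at 7 for Dnmt1-Dam and at 1 for Dam-only, and the height of Dnmt1-Dam exceeds that of Dam-only by at least 6 at every peak.

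Wnt proteins are lipid-modified signals that bind Frizzled receptors together with the co-receptors Lrp5 and Lrp6. In the canonical branch, binding stops a cytoplasmic complex of Axin, Apc and Gsk3b from marking beta-catenin for destruction. Beta-catenin then enters the nucleus and acts through the DNA-binding factors of the Tcf/Lef family. In the mouse, Wnt3 is known for its role in forming the primitive streak, which takes place well after the cleavage stages sampled here.

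Because Dam marks only GATC, the promoters of the genes that the results turn on are shown with that sequence in capitals. They are the genes with the highest peaks (Wnt3), the peak nearest to a start site (Fzd10), the most peaks (Lef1) and the ligand with a distal promoter peak (Wnt11). The windows are from RefSeq on build GRCm38.p6, plus strand, from 250 bases before the start site to 50 bases after it. They lie at chr11:103773925-103774224 (Wnt3), chr7:98834862-98835161 (Wnt11), chr5:128600856-128601155 (Fzd10) and chr3:131110047-131110346 (Lef1, the most upstream of its 4 windows in RefSeq; that of Wnt11 is the most upstream of 2). The peaks of these genes are given in build mm9 and were not placed on these windows.
Wnt3: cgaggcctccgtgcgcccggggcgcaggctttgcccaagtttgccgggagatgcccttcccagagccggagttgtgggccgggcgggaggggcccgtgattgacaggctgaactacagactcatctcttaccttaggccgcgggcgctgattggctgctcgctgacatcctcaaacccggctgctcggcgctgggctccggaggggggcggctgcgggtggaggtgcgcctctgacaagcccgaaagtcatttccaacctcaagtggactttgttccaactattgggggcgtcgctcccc
Wnt11: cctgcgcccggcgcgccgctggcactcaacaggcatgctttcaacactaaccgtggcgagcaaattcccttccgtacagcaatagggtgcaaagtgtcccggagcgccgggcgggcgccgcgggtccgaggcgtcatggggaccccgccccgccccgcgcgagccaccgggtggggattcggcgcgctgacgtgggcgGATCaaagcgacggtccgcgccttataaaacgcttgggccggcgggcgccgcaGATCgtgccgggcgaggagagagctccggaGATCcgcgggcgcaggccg
Fzd10: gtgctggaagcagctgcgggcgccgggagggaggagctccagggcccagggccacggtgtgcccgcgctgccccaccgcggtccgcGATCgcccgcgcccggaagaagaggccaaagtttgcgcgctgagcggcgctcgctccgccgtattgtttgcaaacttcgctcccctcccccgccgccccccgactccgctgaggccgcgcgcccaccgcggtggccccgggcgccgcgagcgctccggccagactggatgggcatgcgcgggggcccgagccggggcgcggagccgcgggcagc
Lef1: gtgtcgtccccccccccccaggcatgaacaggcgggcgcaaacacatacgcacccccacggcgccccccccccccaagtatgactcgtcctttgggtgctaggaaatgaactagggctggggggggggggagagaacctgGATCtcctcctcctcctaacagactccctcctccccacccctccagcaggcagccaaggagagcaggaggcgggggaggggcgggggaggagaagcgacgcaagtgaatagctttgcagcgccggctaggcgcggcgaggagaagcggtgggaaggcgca

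Within its window Wnt3 had no GATC, Fzd10 had 1 (starting at -164, with the start site as 0), Lef1 had 1 (at -110) and Wnt11 had 3 (at -52, 1 and 31). CG dinucleotides numbered 24, 45, 18 and 45 in Wnt3, Fzd10, Lef1 and Wnt11. Tcf7, which also has a distal promoter peak (-6.98 kb), is not printed, and neither of its RefSeq windows held a GATC. RefSeq windows were found for 38 of the 55 members (47 windows), and 21 of these windows (44.7%) held a GATC, a sequence that reads the same on both strands. Among all 32851 windows, which also cover genes that encode no protein, 15758 (48.0%) did. The median CG count was 26 in the members' windows (interquartile range 16.5 to 42) and 7 in all windows (3 to 20). These counts describe the windows, and whether a site in them was marked was not measured. By mm9 start sites, the listed member peak nearest to one was that of Fzd10, 0.52 kb downstream. That is beyond the 50 bases after a start site that a window covers.

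The Wnt3 peaks stood apart from every other peak of the pathway. Of the 19 ligand genes, 6 had peaks: Wnt2, Wnt3, Wnt7b, Wnt9a, Wnt10a and Wnt11. For Wnt3 the height was 63 in Dnmt1-Dam against 1 in Dam-only at position 103623981 of chromosome 11, and 62 against 2 at 103623881. Both positions are upstream of the gene (103635538 to 103679271, plus strand), at -11.6 and -11.7 kb from its start site, in intergenic DNA with no repeat and no CpG island context named. They are 100 bp apart. The pair is listed under Wnt3, while Wnt9b, the gene next to Wnt3 in the RefSeq gene order, had no listed peak. The distance from the pair to Wnt9b was not analysed. Only 5 of the 8226 peaks were as high as 62, both Wnt3 peaks included. The pair was singled out with these peaks known. Nothing is therefore read from its rank here or among the close pairs below. The pair carried 125 of the 513 units of Dnmt1-Dam height summed over the 42 peaks (24.4%). This sum counts both positions of the pair, which are not separate observations. The next highest peak of the pathway was 22, at Lef1.

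Close pairs of similar height also occurred elsewhere. The whole list held 448 neighboring pairs within 200 bp, with a median gap of 110 bp (interquartile range 90 to 130) and a median ratio of the higher to the lower height of 1.20. The Wnt3 ratio was 1.02. Both heights reached 20 in 11 of the 448 pairs and 40 in 2 of them, Wnt3 and a pair of 40 and 40. The other peaks around Wnt3 were between 7 and 14. The nearest peak on the upstream side, in the body of Gosr2, a gene of vesicle transport, lay 66.5 kb away at 14 against 3. The nearest on the downstream side, in the body of Nsf, a fusion factor of vesicle transport, lay 135 kb away at 8 against 1.

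**Figure D1:**
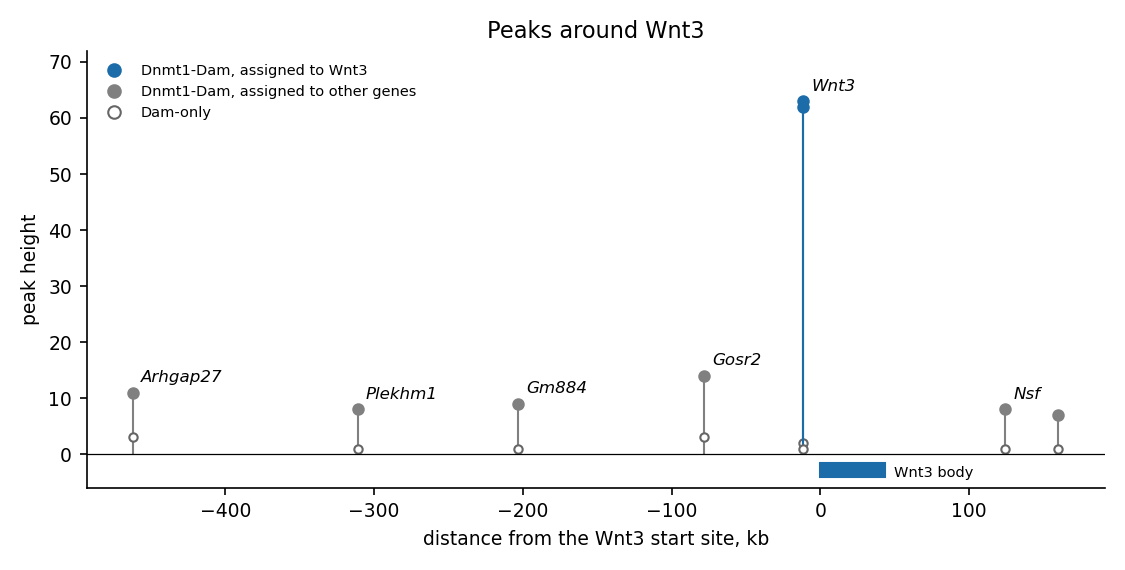
Peak height (vertical axis, no unit) by distance from the Wnt3 start site in kb (horizontal axis, negative is upstream) for the peaks from -462 to 160 kb; filled points are Dnmt1-Dam, open points Dam-only, and the bar is the Wnt3 body. The pair at -11.7 and -11.6 kb reaches 62 and 63, and the other peaks in view lie between 7 and 14.

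The other ligand peaks had heights of 7 to 13, all below the Wnt3 pair. Wnt7b, a ligand of lung and placental development, had 3 peaks on chromosome 15: 13 against 1 and 9 against 3 in its body, 40.7 and 28.7 kb past the start site, and 8 against 1 at -63.2 kb. Wnt11, which acts mostly outside the beta-catenin branch, had a peak of 8 against 2 in its distal promoter at -9.78 kb (chromosome 7, 105977571) and one of 7 against 1 at -29.9 kb. Wnt9a had a peak of 9 against 1 on chromosome 11 at 59148451, 1.40 kb beyond the end of the gene. Wnt2 had 8 against 1 at 77.9 kb from its start site, and Wnt10a had 7 against 1 in a LINE at 28.1 kb. Over the 10 ligand peaks the median height was 8.50, beside 9 over all peaks. No peak was listed for the other 13 ligands: Wnt1, Wnt2b, Wnt3a, Wnt4, Wnt5a, Wnt5b, Wnt6, Wnt7a, Wnt8a, Wnt8b, Wnt9b, Wnt10b and Wnt16.

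Receptor genes had 1 peak each and no pair. Of 15, 8 had a peak: Fzd1, Fzd4, Fzd7, Fzd8, Fzd10, Lrp5, Lrp6 and Ror2. Fzd1, a Frizzled receptor, had the highest, of 18 against 5, on chromosome 5 at 4742381, in intergenic DNA 15.8 kb downstream of its start site. Its Dam-only height of 5 was the highest among the member peaks, shared with Gsk3b, so its ratio was 3.60. The co-receptors Lrp5 and Lrp6 each had a peak inside the gene, of 10 against 1 at 20.9 kb from the start site (chromosome 19, 3665691) and of 11 against 2 at 59.6 kb (chromosome 6, 134457281). Ror2, a receptor tyrosine kinase for Wnt5a, had 10 against 1 in an LTR element at -13.1 kb.

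Fzd10 had the only proximal promoter peak of the pathway, 1 of 42 (2.38%), beside 2.66% of all peaks. It measured 7 against 1, at position 129107501 of chromosome 5, 0.520 kb downstream of the start site and inside the short gene (2.99 kb). A height of 7 is the lowest that the table lists. The remaining Frizzled peaks were also at 7 against 1. They lay at 10.7 kb from the start site in LINE and SINE sequence (Fzd7), at 52.8 kb in a SINE (Fzd4) and at -424 kb in a LINE (Fzd8). Fzd2, Fzd3, Fzd5, Fzd6, Fzd9, Ror1 and Ryk had no peak. Over the 8 receptor peaks the median was 8.50, and a retroelement was named at 4 of them, beside 35.0% of all peaks.

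Secreted inhibitors had 4 peaks at 4 of 9 genes. Each stood at a Dam-only height of 1, as did 75.8% of all peaks. None had a retroelement named, beside 35.0% of all peaks that had one, and with 4 peaks nothing is read from this. Sfrp1, a decoy that binds Wnt proteins, had a peak of 10 against 1 on chromosome 8 (24537511), within the gene and 15.5 kb past its start. Dkk2, which binds the Lrp co-receptors, had 11 against 1 at 174 kb, beyond the end of the gene. Frzb and Sfrp2, decoys of the same family as Sfrp1, had 7 against 1 at -40.4 and -234 kb. Dkk1, Dkk3, Sfrp4, Sfrp5 and Wif1 had none. Of the R-spondins, agonists that keep Frizzled receptors at the cell surface, Rspo2 had 10 against 1 at 197 kb and Rspo3 had 8 against 1 in an LTR element at -185 kb and 7 against 1 in a SINE at -59.4 kb. The last of these was the only member peak in the shore of a CpG island. Rspo1 had no peak.

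Among the cytoplasmic genes, 3 of 5 had peaks, and within Gsk3b and Axin2 the higher peaks were also the higher ones in Dam-only. Gsk3b, the kinase that marks beta-catenin, had 16 against 5 and 11 against 1 inside the gene on chromosome 16, at 38159471 and 38187521. Axin2, a scaffold of the destruction complex and itself a Wnt target, had 14 against 4 in an LTR element 9.23 kb beyond its end, 10 against 3 at -56.0 kb and 7 against 1 inside the gene. The ratio of heights was 3.20 at the highest Gsk3b peak and 3.50 at the highest Axin2 peak. Ctnnb1, the beta-catenin gene, had 2 peaks of 9 against 1 that are 110 bp apart (chromosome 9, 120916351 and 120916461), 46.7 and 46.8 kb beyond its end. Axin1 and Apc had no peak.

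All 4 nuclear effector genes had peaks once genes were named by accession, beside 22.7% of all genes. By the deposited name 2 of 4 had peaks, beside 17.9%. Lef1, a DNA-binding partner of beta-catenin, had 7 peaks, the most of any member. The highest measured 22 against 3 at position 130836971 of chromosome 3, inside the gene (130813389 to 130926249) and 23.6 kb from its start site. Another of 11 against 1 lay inside at 81.2 kb. Upstream, 5 peaks lay between -137 and -91.5 kb, with heights of 8, 12, 7, 10 and 11 and Dam-only heights of 1 or 2. None of the 7 had a repeat named, which was also so at 60.5% of all peaks. The 7 Lef1 peaks spanned 219 kb, with 143 kb to the preceding peak (assigned to Rpl34) and 581 kb to the following one (Papss1). Of 4766 genes with a peak by accession, 57 (1.20%) had 7 or more and 106 (2.22%) had 6 or more. The 2 peaks of heights 8 and 12 are 130 bp apart, and counting them as 1 would leave Lef1 with 6. Lef1 is described here as the member with the most peaks, so nothing is read from these shares.

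Tcf7, expressed in T cells and some stem cells, had 3 peaks on chromosome 11, all upstream: 7 against 1 in the distal promoter and the shelf of a CpG island (-6.98 kb, 52102731), 8 against 2 in SINE sequence (-16.0 kb) and 10 against 1 (-24.3 kb). Tcf7l2 had 5 peaks on chromosome 19, each at a Dam-only height of 1, as were 75.8% of all peaks. Inside the gene (55816300 to 56008144) lay 4 of the 5, with heights of 10, 11, 7 and 8 at 34.1, 47.6, 97.9 and 98.3 kb from the start site. The other, of height 8, lay at -112 kb. Tcf7l1, mostly a repressor of Wnt targets, had a SINE peak of 8 against 2 on chromosome 6 (72721891), within the gene and 17.1 kb past its start. Peaks inside the gene were thus 2 of 7 at Lef1, 0 of 3 at Tcf7, 4 of 5 at Tcf7l2 and 1 of 1 at Tcf7l1. Among these 4 genes the peak nearest to a start site was that of Tcf7 at -6.98 kb.

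**Figure D2:**
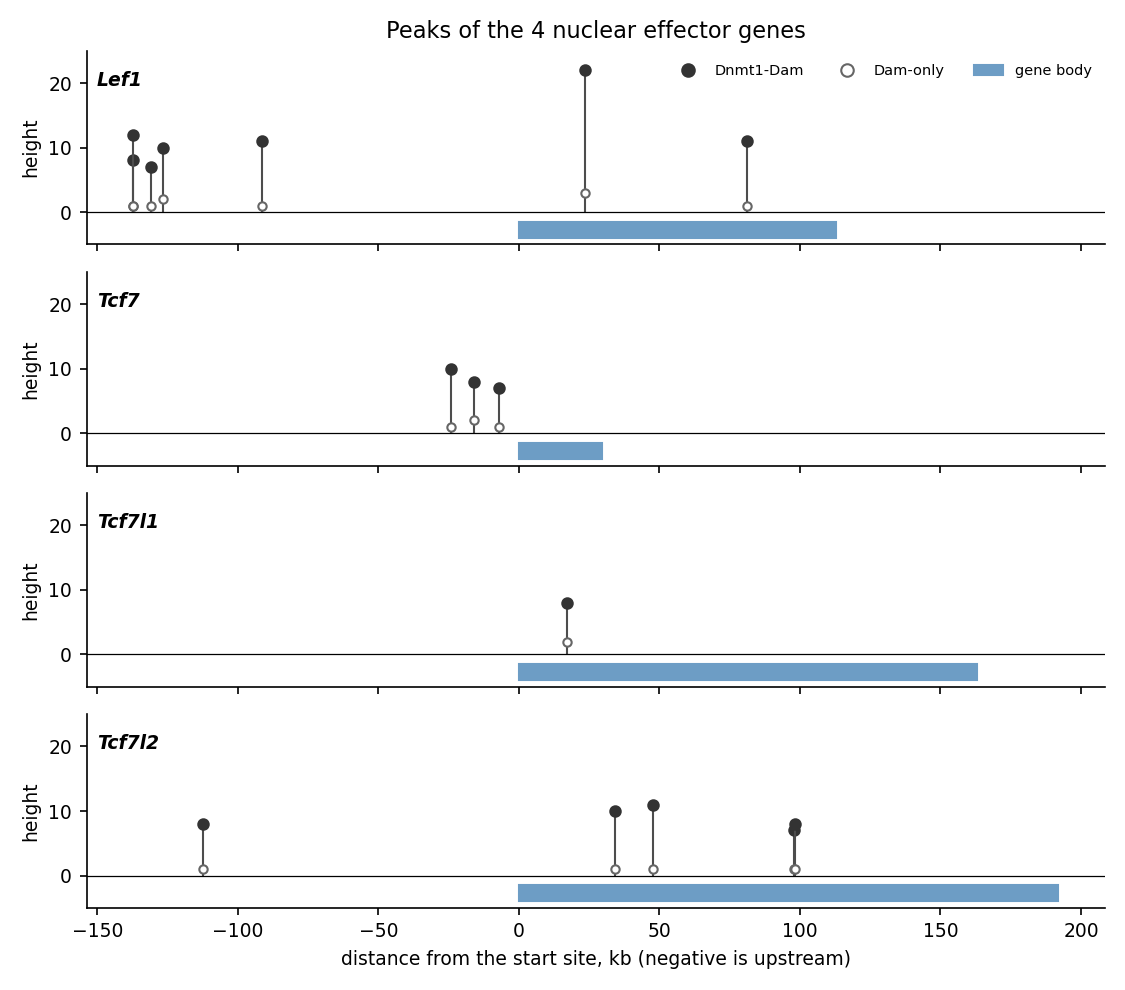
Peak height (vertical axes, no unit) by distance from each start site in kb (horizontal axis, negative is upstream) for Lef1, Tcf7, Tcf7l1 and Tcf7l2; filled points are Dnmt1-Dam, open points Dam-only, bars the gene bodies. Lef1 has 5 peaks upstream and 2 inside, the 3 Tcf7 peaks are all upstream, and 4 of 5 Tcf7l2 peaks are inside.

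Beside the whole list, the heights of the pathway's peaks differed little apart from Wnt3. The median was 9 in the 42 peaks (95% order-statistic interval 8 to 10) and 9 in all peaks. Of the 42, 24 (57.1%, exact Clopper-Pearson 95% interval 41.0 to 72.3) reached 9 or more, as did 52.9% of all peaks, and 5 (11.9%, 3.98 to 25.6) reached 15 or more, beside 8.66% of all. These 5 were the Wnt3 pair, Lef1, Fzd1 and, just inside, Gsk3b at 16. Without the Wnt3 pair the count was 3 of 40 (7.5%). Just below that height lay Axin2 at 14. At the lowest listed height of 7 were 12 peaks (28.6%), as were 26.8% of all. Dam-only stood at 1 at 31 of the 42 (73.8%) and at 75.8% of all peaks. The median log2 ratio, with a pseudocount of 1 and the Dam-only heights scaled by 6.75 to the summed Dnmt1-Dam heights, was 0.08 (0.05 to 0.37) beside 0.21 in all peaks, where 0 is the ratio of the sums. By accession the median height was also 9 (8 to 10), 26 of 48 peaks (54.2%) reached 9 or more and 5 (10.4%, 3.47 to 22.7) reached 15 or more. Dam-only stood at 1 at 36 of 48, and the median log2 ratio was 0.16 (0.05 to 0.37). All intervals cover counting error only, and they take each peak as a separate observation although pairs such as those of Wnt3, Lef1 and Ctnnb1 are not.

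**Figure D3:**
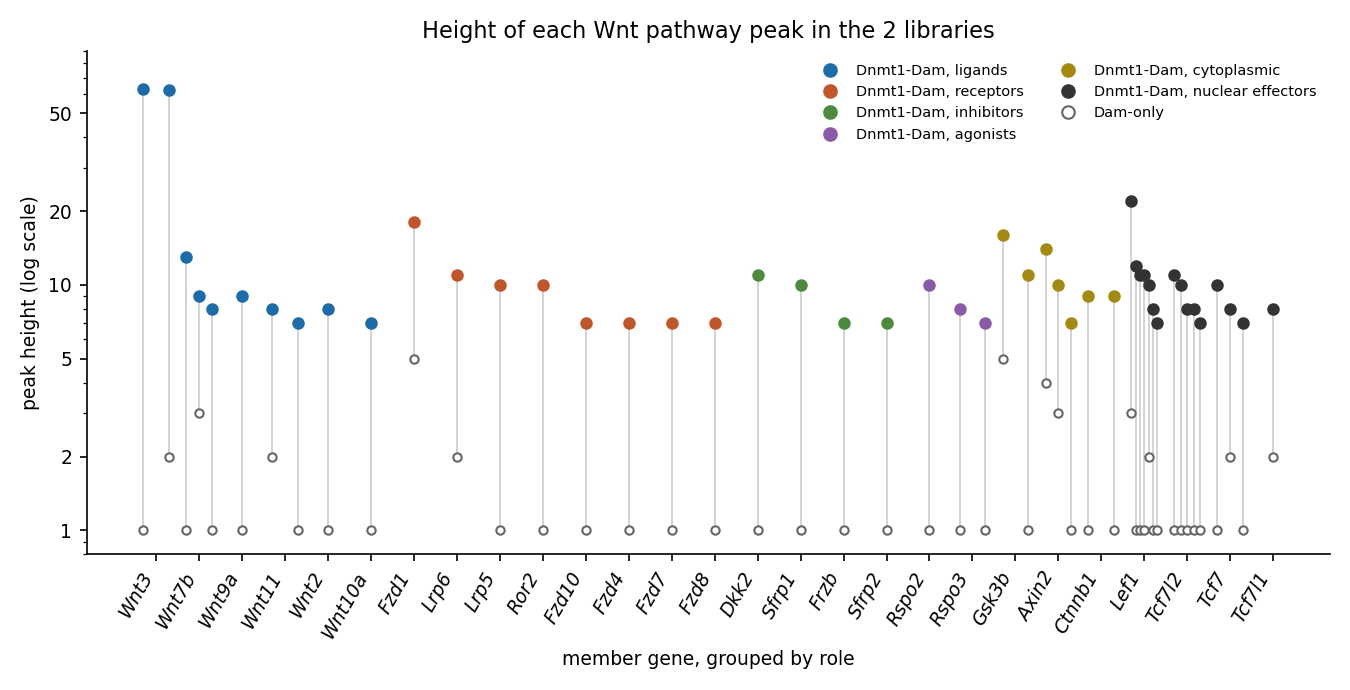
Height of each of the 48 peaks of the pathway by accession (vertical axis, log scale, no unit), by gene and grouped by role; filled points are Dnmt1-Dam and open points, joined by a line, Dam-only at the same peak. The 2 Wnt3 points at 63 and 62 lie above all others, which run from 7 to 22.

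Most peaks of the pathway lay outside the genes. By class, 29 of the 42 were intergenic (69.0%, 52.9 to 82.4), 10 were in gene bodies (23.8%, 12.1 to 39.5), 2 in distal promoters and 1 in a proximal promoter. Among all peaks 50.8% were intergenic and 42.5% in gene bodies. The members' intervals for these 2 classes did not contain those shares. With the 6 peaks added by accession, 30 of 48 were intergenic (62.5%, 47.4 to 76.0) and 15 in gene bodies (31.2%, 18.7 to 46.3), and the intervals contained both. The direction was the same under both namings, and only whether the intervals contained the shares of all peaks changed. The members were chosen with these data known and their peaks are not all separate observations, so nothing is read from either. In promoters the shares of the 42 were 4.76% distal and 2.38% proximal, beside 4.07% and 2.66% of all peaks. The median distance from a peak to the start site was 46.8 kb (28.0 to 73.8) beside 60.4 kb for all peaks, and 7 of 42 peaks (16.7%) were more than 100 kb outside the gene, beside 23.1% of all. By accession the median distance was 50.2 kb (28.1 to 73.9), with 8 of 48 peaks (16.7%) that far outside. Each of the 42 was assigned to the gene with the nearest start site among those in the table, as were 94.9% of all peaks. Genes without a listed peak were not among those compared, so a nearer gene could be missing. The farthest member peak was that of Fzd8 at -424 kb. Chromosomes 11 and 3 each held 9 of the 42 peaks, from 4 genes and 3 genes.

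**Figure D4:**
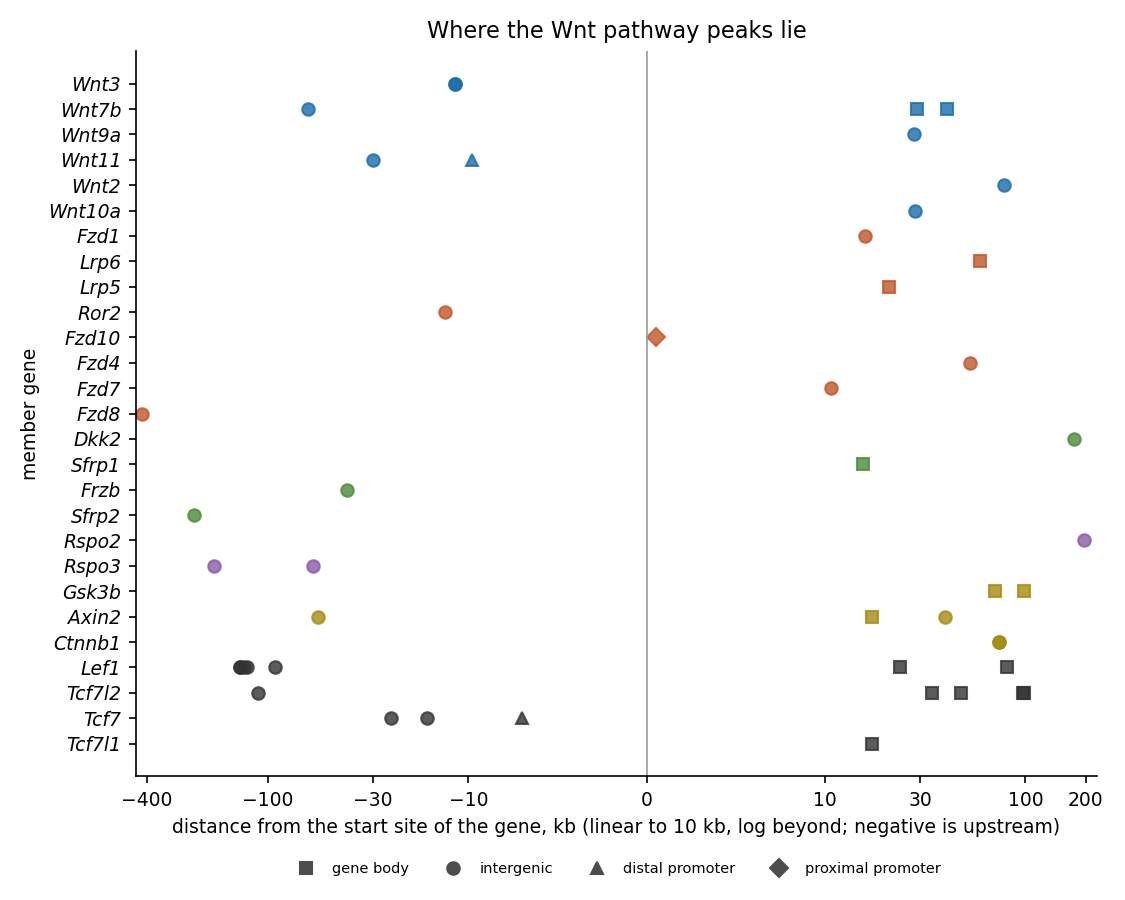
Distance of each of the 48 peaks from the start site of its gene in kb (horizontal axis, linear to 10 kb and logarithmic beyond, negative is upstream), by gene; symbols give the location class and colors the role. Only Fzd10 (0.520 kb), Tcf7 (-6.98 kb) and Wnt11 (-9.78 kb) have a peak within 10 kb of the start site.

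Retroelements are the sequences named in the title of the series. A SINE, LINE or LTR element was named at 10 of 42 (23.8%, 12.1 to 39.5) and at 13 of 48 by accession (27.1%, 15.3 to 41.8). Among all peaks the share was 35.0%, which both intervals contain. SINEs were named at 5 peaks, LINEs at 3 and LTR elements at 3, Fzd7 having a LINE and a SINE. None of the 5 peaks of height 15 or more had a retroelement named, and the Wnt3 pair is among them. The share over all peaks of that height was not computed, so nothing is read from this count. CpG island context was named at 2 of 42 peaks (4.76%, 0.582 to 16.2) and at 6.61% of all, both outside the islands themselves. By accession it was 2 of 48 (4.17%).

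**Figure D5:**
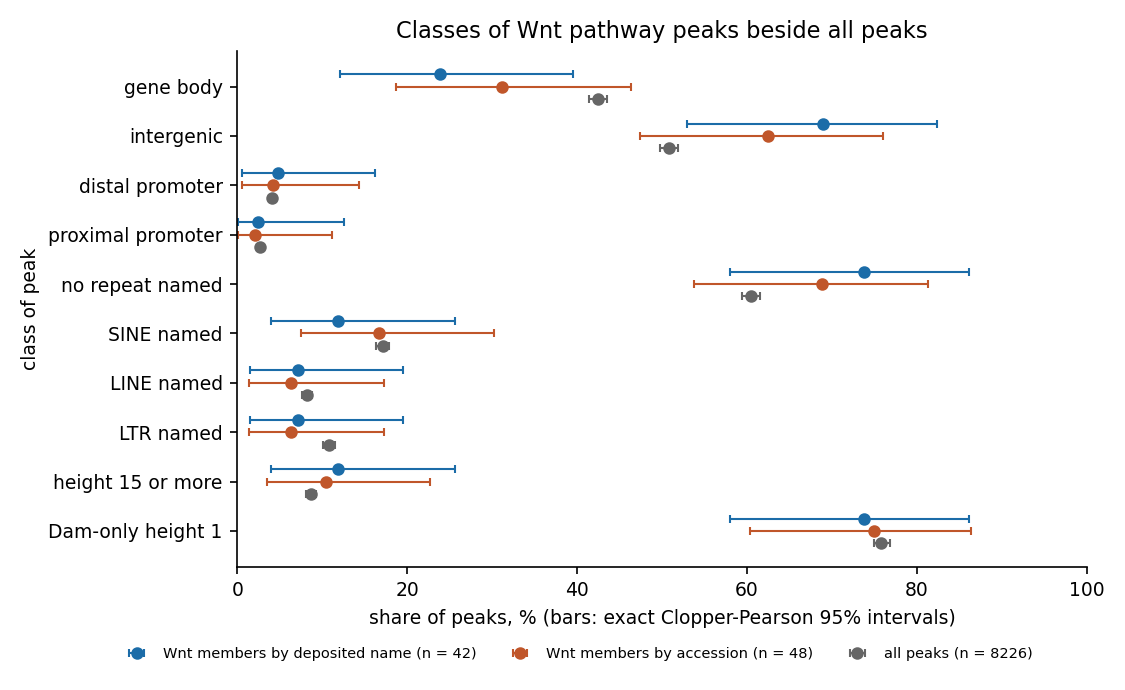
Share of peaks in each class in percent (horizontal axis) for the 42 peaks of the pathway by deposited name, the 48 by accession and all 8226 peaks; bars are exact Clopper-Pearson 95% intervals. The gene body share of the members is 23.8% by name and 31.2% by accession, beside 42.5% for all peaks.

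As a background, 17.9% of 21035 genes (those for which RefSeq lists a curated mRNA accession) had a peak by deposited name and 22.7% by accession. The members' counts were 25 of 55 (45.5%) and 27 of 55 (49.1%). The members were proposed with these peaks known, and nothing is read from that difference. Inside gene bodies 8 members (14.5%) had a peak by name, beside 9.20% of all genes, and 10 (18.2%) by accession, beside 11.7%. Within 10 kb of the body the count by name was 12 (21.8%), beside 11.5%, and in a promoter class 3 (5.45%), beside 1.90%. Gene length and the space between genes were not matched.

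Among 65 other genes of the pathway, listed with results of these data known, 22 (33.8%) had a peak by accession, beside 22.7% of all genes, and none of their 39 peaks reached 15, beside 8.66% of all peaks. Their median height was 8, beside 9 in all peaks, and 15 of the peaks (38.5%) lay inside a gene, beside 43.0% of all. The highest, at 14 against 1, were at Ctbp2 and Prickle1, at Ptk7, a co-receptor of planar polarity, and at Tnks, a polymerase that destabilizes Axin. Tle3, a corepressor of Tcf factors, had the most peaks, 4 of 7 or 8, and Ctbp2, another corepressor, had 3, as did Musk and Prickle1. Those of Musk lie close together on chromosome 4, at 58280561, 58280671 and 58280791, and are not separate sites. By group, 6 of 11 nuclear cofactors, 5 of 14 cytoplasmic genes, 4 of 13 membrane regulators, 4 of 10 planar polarity genes and 3 of 7 target genes had a peak. The 3 targets were Myc (9 against 1 and 7 against 1), Ccnd1 (7 against 1) and T, the primitive streak factor (12 against 2), all in intergenic DNA. No peak was listed for the 3 genes of ligand processing (Porcn, Wls and Notum) or for the 7 other secreted regulators. None of the 39 peaks was in a promoter class, beside 4.07% of all peaks in distal and 2.66% in proximal promoters.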

How the data were processed

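DamID libraries of Dnmt1-Dam and of Dam-only embryos, 1 each, were compared at the deposited peaks. CASAVA, BWA and the build mm9 are named, with no versions or roles, per the submitters' processing notes. Per the labels' protocols the DNA was amplified with 15 PCR cycles and fragments around 300 bp were taken. The signal heights are the authors' values, deposited as whole numbers at peak positions on a 10 bp grid. Not given in the sources used here: how heights were scaled, which peak caller and thresholds were applied, whether duplicate reads were removed, and the depth. Heights were therefore not treated as read counts.

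Peaks were tied to members by the deposited gene name (the rule) and, as a second naming, by transcript accession through RefSeq's gene list (assembly GRCm38.p6), used for names and gene order only. Blank names occurred at 473 peaks, and 443 of them were resolved. Distances, shares, medians and exact 95% intervals were computed with Python 3.11.15, pandas 2.3.3, NumPy 2.4.6 and SciPy 1.17.1, with a pseudocount of 1 for log2 ratios of the deposited heights. Interval and ratio functions were tested on simulated data. Location classes are the authors'. Windows of DNA letters come from RefSeq promoters. No coordinates were converted between builds.

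The named genes are all members with a peak, the peaks just inside and outside each height threshold, and, of the other pathway genes, the 4 with the highest peak and the 2 with the most, where 3 genes tied for the second place; genes of the target group were named as well, after their values were seen. The members and gene lists were chosen with earlier results of these data known. With 1 library per group, no test between groups was possible, and no replicate could be left out. Alternatives covered the height, the merging of peaks within 1 kb, the Dam-only height, the distance that ties a peak to a gene, gene naming, the pseudocount and the scaling.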

Additional observations from a re-analysis of the deposited data

How the results depend on the processing

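Of 52 recalculated values, 34 stayed close to the reported one (counts within 1.5 times of it, shares and medians within its interval) and 18 moved. Most moves follow from the construction of the alternative, which keeps fewer peaks. With peaks of height 9 or more, 15 members had 24 peaks (median 11), and with height 15 or more 4 members had 5 peaks (median 22, 0.0% with a retroelement). Within 10 kb of the gene, 12 members had 16 peaks, of which 68.8% were inside it. Inside the gene alone, 8 members had 11 peaks (median 11, 9.09% with a retroelement). The other pathway genes with a peak numbered 11 within 10 kb and 10 at height 9 or more. The median log2 ratio was 2.08 without scaling and 0.44 for heights summing to at least 10. Merging within 1 kb left 39 peaks and 25 members, and peaks at a Dam-only height of 1 left 31 peaks and 23 members. Blank names filled through the accession gave 26 members and 47 peaks. Naming all genes by accession and leaving out the Wnt3 pair (24 members, 40 peaks, median 9) were alternatives chosen after seeing the data. No paired analysis was possible because each group is 1 library. The unknown depth limits all heights, and a gene with no row may have had a difference too small for the table.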

Other observations

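Several Wnt ligand genes are direct neighbors in the RefSeq gene order of protein-coding genes (GRCm38.p6). In 3 of the 4 neighboring pairs 1 gene had peaks and the other had none. Of all 19 ligand genes, 6 had a peak. The share of such pairs among other neighboring genes was not computed, so nothing is read from this count. Wnt3 had 2 peaks and Wnt9b, the gene next to it, had 0. Wnt9a had 1 and its neighbor Wnt3a had 0, and Wnt10a had 1 and its neighbor Wnt6 had 0. Wnt1 and its neighbor Wnt10b both had 0. A peak is listed under 1 gene only, so a peak between neighbors is counted for 1 of them. The distance from the Wnt3 pair to Wnt9b was not analysed here, since no mm9 position of that gene was used.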
